A study of Mus musculus with 40 samples.

Results

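Cadherins are calcium-dependent adhesion proteins that bind their own kind on neighbouring cells. The classical members (type I and type II) reach through the membrane to catenins, which link them to actin, whereas T-cadherin is held by a lipid anchor and lacks a cytoplasmic tail. In skin, E-cadherin (Cdh1) and P-cadherin (Cdh3) join melanocytes to keratinocytes, and a gain of N-cadherin (Cdh2) with loss of E-cadherin is a textbook change in melanoma. Cadherin 19 (Cdh19) is known from the neural crest and from Schwann cell precursors. The 8 cadherins described here, Cdh1, Cdh2, Cdh3, Cdh4, Cdh6, Cdh11, Cdh13 and Cdh19, were taken by name from the 51789 genes of the count table after its Ensembl identifiers had been paired with mouse symbols. The rule uses no measured value, but the list of members was chosen with earlier results of these data known.

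The libraries were 3′ mRNA-seq profiles, whose reads come from near the end of each transcript, from mouse melanoma cell lines grown in culture. There were 40 libraries in 20 groups of 2. B16-F10 cells were profiled as a control clone (Ctrl) and as a Bmal1 knockout clone (KO). Bmal1, encoded by Arntl, is the clock transcription factor that binds E-box DNA together with Clock. YUMM2.1 cells carry, among other alleles, Braf V600E, Cdkn2a+/- and a stabilised beta-catenin, and keep their own Bmal1. aC3 is a Bmal1-null clone of YUMM2.1 made by CRISPR, so all of its libraries come from the progeny of 1 cell. YUMM1.7 cells carry, among other alleles, Braf V600E and Cdkn2a-/-. Each of YUMM2.1, aC3 and YUMM1.7 received lentivirus holding an empty vector (EV), wild-type Bmal1 (WT-Bmal1) or a Bmal1 that lacks its DNA-binding domain (dHLH-Bmal1, written bHLH in the labels). GFP-positive cells were sorted where the methods describe it, for YUMM2.1 and aC3. For both, the methods also describe lines of these names made in cells that carried a blasticidin-selected Bmal1 luciferase reporter. The 3 YUMM2.1 derivatives were also given a scrambled hairpin (shNC) or hairpin 2 or 4 against Myh9, the non-muscle myosin heavy chain, and selected with puromycin (groups shNC, shMyh9#2 and shMyh9#4). Levels are given in CPM, read counts scaled to library size with TMM factors, and they were compared within a gene only.

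Total counts ran from 3643332 to 22970049 per library, and 3 counts corresponded to between 0.122 and 0.846 CPM. In every EV, WT-Bmal1 and dHLH-Bmal1 background Myh9 was lower with shMyh9#2 than with shNC, and the fall was smaller with shMyh9#4 (log2 fold changes of -1.51 and -0.52 in EV cells). Arntl did not mark the B16-F10 knockout, at a mean of 12.4 CPM in KO against 13.0 CPM in Ctrl, but 3′ tags outside the edited part of the gene check nothing. The melanocyte enzymes and melanosome genes Tyrp1, Dct and Mlana were abundant in B16-F10 (Dct 12400 to 17400 CPM), and Tyrp1 and Mlana were at 0 in all 36 YUMM libraries. The keratinocyte and epithelial marker list summed to at most 8.27 CPM in any library and Epcam was at 0 everywhere. The leukocyte list reached at most 0.824 CPM with Cd3e at 0, and the endothelial list lay between 3.75 and 26.4 CPM. In bulk RNA, fewer cells expressing a gene and less RNA per cell cannot be told apart.

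The labels of 2 YUMM2.1 libraries are in doubt. When 8 library columns were matched with the study's own normalized counts, the columns of EV replicate 2 and WT-Bmal1 replicate 1 each matched best under the other's label. The deposited labels were kept here. Where it matters, the value with both labels exchanged, or with both libraries left out, stands beside the result. The study calls its replicates biological, but the sources used here do not say what separated them (culture, transduction or day), and the p-values below measure the spread between these libraries. With 2 libraries a group, an exact permutation test cannot go below p = 0.333 for a single gene. The tests are therefore edgeR's quasi-likelihood tests with Benjamini-Hochberg adjustment over all tested genes, and a gene is called at an adjusted p under 0.05.

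Of the 8 cadherins, 5 passed the filter on low counts over all 40 libraries, namely Cdh1, Cdh2, Cdh6, Cdh13 and Cdh19. Cdh3, the P-cadherin of basal epithelium and hair follicles, had 8 counts in all, spread over 5 libraries. R-cadherin (Cdh4), a type I relative of N-cadherin, had 5 counts in 5 libraries. Cdh11, a type II cadherin of mesenchymal cells, had 1 count in 40 libraries. Their levels were therefore at or under the detection limit in every line, whatever the construct. Cdh1 and Cdh3 lie next to each other on chromosome 8 (GRCm38, chr8:106603351-106670246 and chr8:106510891-106557297, plus strand), and neither overlaps another annotated gene.

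Cdh1, the E-cadherin of epithelia and melanocytes, was scarce and was found mainly in B16-F10. The Ctrl libraries held 22 and 16 reads of it, and the KO libraries 22 and 37 (0.776 to 1.77 CPM). In the 36 YUMM libraries it had between 0 and 6 counts, and 20 of these libraries were at 0. Every B16-F10 library thus held more Cdh1 counts than every YUMM library. Pooled over libraries, the B16-F10 level was 9.48 times the YUMM level (97 against 41 counts, 95% counting interval 6.51 to 14). Within B16-F10, Ctrl and KO overlapped and no difference was called (log2 fold change 0.54, SE 0.588, adjusted p = 0.73).

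**Figure D1:**
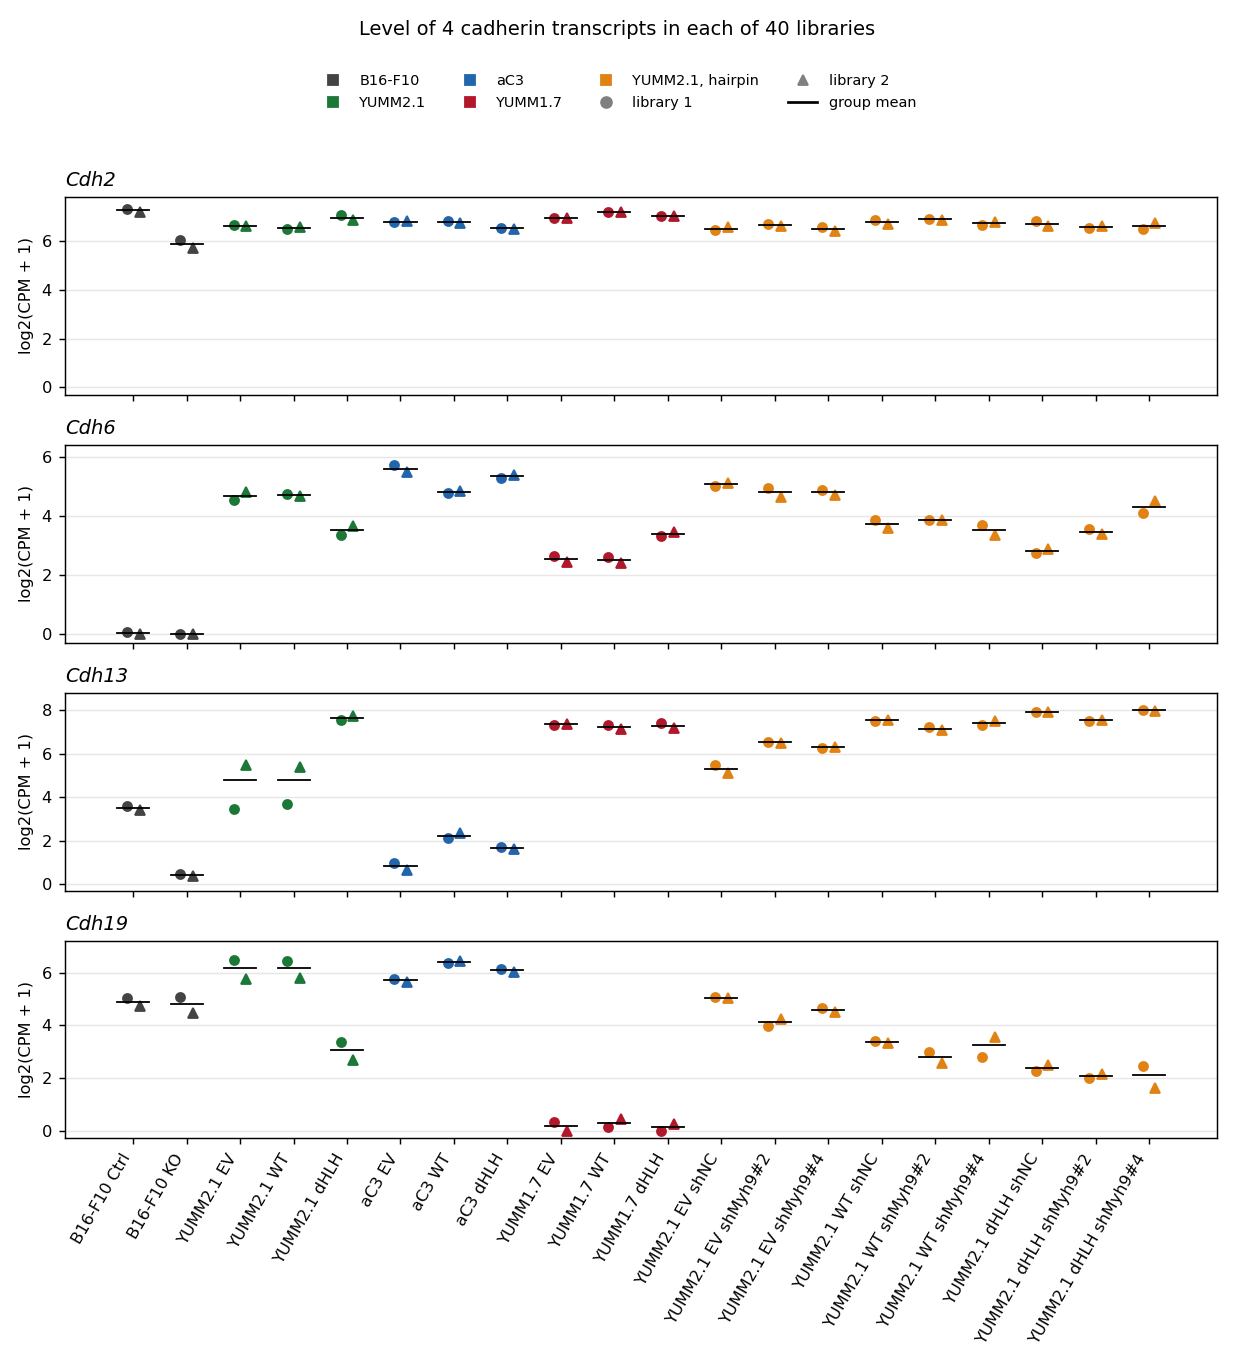
Levels of Cdh2, Cdh6, Cdh13 and Cdh19 in every library (points; y axis log2 of CPM plus 1) for the 20 groups (x axis), in 1 panel a gene. Cdh2 lies in a narrow band, Cdh6 is at the floor in B16-F10, Cdh19 is at the floor in YUMM1.7, and Cdh13 runs from 0.288 to 259 CPM.

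The 4 abundant members differed widely in how much they varied. Across the 20 group means (log2 of CPM plus 1) the standard deviation was 0.30 for Cdh2, 1.54 for Cdh6, 2.05 for Cdh19 and 2.54 for Cdh13, against a median of 0.37 over 16619 genes. These values stand at percentiles 30.6, 96.4, 98.7 and 99.7 of those genes. Cdh2 was thus less variable than most genes, whereas the type II cadherins Cdh6 and Cdh19 and T-cadherin (Cdh13) were among the most variable. When the groups were ranked by mean level, the ranges of neighbouring groups overlapped in 15 of 19 pairs for Cdh2, 12 for Cdh19, 10 for Cdh6 and 7 for Cdh13.

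The first comparison asked how the lines differ, and used their EV or Ctrl libraries. These are vector-carrying cells or, in B16-F10, a control clone, and not the parental cells themselves. Against YUMM2.1, all 4 tested cadherins were called in YUMM1.7, where 37.1% of all tested genes were called, and all 4 in B16-F10, where 54.3% were called. In aC3, the clone of YUMM2.1 itself, 2 of 4 were called beside 1.75% of all genes. These 3 comparisons share the YUMM2.1 EV libraries.

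N-cadherin was abundant in every line. Cdh2 (chr18:16588877-16809246, minus strand) was at 99.5 and 96.4 CPM with EV in YUMM2.1, at 123 and 121 CPM with EV in YUMM1.7, at 108 and 111 CPM with EV in aC3 and at 158 and 145 CPM in B16-F10 Ctrl. The B16-F10 and YUMM1.7 values lay above both YUMM2.1 values. The differences were small, at a log2 fold change of 0.60 (SE 0.0879, adjusted p = 0.00027) for B16-F10 and 0.31 (SE 0.0887, adjusted p = 0.021) for YUMM1.7. The latter lost its call without either YUMM1.7 library (adjusted p = 0.12 and 0.099).

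Cdh6, the type II K-cadherin known from kidney and neural crest, separated B16-F10 from all YUMM lines. Its gene (ENSMUSG00000039385, chr15:13028701-13173675, minus strand) overlaps no other annotated gene. It had 1 count in 1 B16-F10 Ctrl library and 0 in the other 3 B16-F10 libraries, against 39 to 581 counts in each of the 36 YUMM libraries. YUMM2.1 EV held 22.3 and 27.3 CPM, aC3 EV 52.0 and 43.7 CPM and YUMM1.7 EV 5.26 and 4.40 CPM. These YUMM groups did not overlap, with aC3 highest and YUMM1.7 lowest. The YUMM2.1 EV level was 1020 times that of B16-F10 Ctrl (522 against 1 counts, 95% counting interval 182 to 40300). Against YUMM2.1, Cdh6 was lower in YUMM1.7 (log2 fold change -2.36, SE 0.211, adjusted p = 1.8e-05) and higher in aC3 (0.95, SE 0.18, adjusted p = 0.032). The call in aC3 was lost without either aC3 EV library (adjusted p = 0.34 and 0.18) and with the replicate number as a block (adjusted p = 0.06).

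The sequence before the Cdh6 gene is shown because Cdh6 is the member with a promoter in the reference tables used, and because the constructs differ in whether Bmal1 can bind E-boxes. The 250 bases upstream (RefSeq, GRCm38.p6, chr15:13173676-13173925, minus strand, 5′ to 3′) have the general E-box in capitals.
Cdh6: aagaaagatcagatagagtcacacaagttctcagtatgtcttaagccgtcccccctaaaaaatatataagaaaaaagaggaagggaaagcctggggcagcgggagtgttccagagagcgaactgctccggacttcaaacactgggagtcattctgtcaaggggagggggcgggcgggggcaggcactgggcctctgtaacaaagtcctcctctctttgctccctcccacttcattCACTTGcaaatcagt
The canonical clock E-box CACGTG was searched on both strands and is not in this window, and 6.02% of 32851 promoters hold it in a window of the same length. The looser pattern CANNTG, of which CACGTG is a special case, occurs in 1 place, as CACTTG starting 15 bases before the gene, and 66.2% of promoters hold it. A match in letters is a description and not a binding site.

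Cdh19 was the member that set YUMM1.7 apart. Its gene (ENSMUSG00000047216, chr1:110888326-110977584, minus strand) overlaps 2 annotated genes on the same strand. YUMM2.1 EV held 88.9 and 53.0 CPM, aC3 EV 53.8 and 49.9 CPM and B16-F10 Ctrl 31.7 and 25.7 CPM. The 6 YUMM1.7 libraries held between 0 and 4 counts each, and 2 of them were at 0. YUMM2.1 EV was 535 times YUMM1.7 EV (1562 against 3 counts, 95% counting interval 183 to 2600). B16-F10 was lower than YUMM2.1 by a log2 fold change of -1.34 (SE 0.241, adjusted p = 0.001), without overlap. The aC3 and YUMM2.1 ranges overlapped and no difference was called (-0.46, SE 0.238, adjusted p = 0.43), but it was called with the doubted labels exchanged (-0.77, adjusted p = 0.0013).

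Cdh13, the lipid-anchored T-cadherin, had the widest range. Its gene (ENSMUSG00000031841, chr8:118283733-119324921, plus strand) overlaps 1 annotated gene on its strand and 4 on the other, and the strand setting of the counting is not given in the sources used here. YUMM1.7 EV held 161 and 163 CPM, YUMM2.1 EV 9.88 and 43.7 CPM, B16-F10 Ctrl 11.0 and 9.75 CPM, and aC3 EV 0.984 and 0.556 CPM (11 and 6 counts). YUMM1.7 was thus far above and aC3 far below both YUMM2.1 libraries, while B16-F10 overlapped YUMM2.1. The log2 fold change against YUMM2.1 was 2.62 (SE 0.466, adjusted p = 0.0017) for YUMM1.7 and -5.07 (SE 0.771, adjusted p = 0.011) for aC3. Leaving out either aC3 EV library raised the latter to adjusted p = 0.18 or 0.21, whereas exchanging the doubted labels gave -3.80 (adjusted p = 9.8e-07). For B16-F10 the difference was -1.37 (SE 0.487, adjusted p = 0.037), and -0.09 (adjusted p = 0.56) with the labels exchanged.

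Loss of Bmal1 in B16-F10 was compared next, between what the methods call a knockout clone and a control clone. The clone and the loss of Bmal1 therefore cannot be told apart in these libraries. Of 4 cadherins tested, Cdh13 alone was called, beside 0.44% of 14556 genes. Cdh13 fell from 11.0 and 9.75 CPM in Ctrl (231 and 201 counts) to 0.367 and 0.288 CPM in KO (9 and 6 counts). The groups stood far apart, at a log2 fold change of -4.96 (SE 0.353, 31.1-fold lower, adjusted p = 0.025). Cdh2 stood at 158 and 145 CPM in Ctrl and at 65.3 and 51.5 CPM in KO, again without overlap. Its log2 fold change of -1.38 (SE 0.189) missed the threshold at adjusted p = 0.076, and also with DESeq2's size factors in edgeR (adjusted p = 0.084). DESeq2 (adjusted p = 9.5e-06) and the fit with a replicate block (adjusted p = 0.0091) called it. So did edgeR with no filter on low counts (adjusted p = 0.00056) and in 1 fit of all 40 libraries (adjusted p = 5.5e-10). Without KO 1 or KO 2 the log2 fold change was -1.56 or -1.22. Cdh19 was at 31.7 and 25.7 CPM in Ctrl and 32.7 and 20.9 CPM in KO, which overlap (log2 fold change -0.10, SE 0.274, adjusted p = 0.89). The 2 KO libraries differed from each other more than any other pair of replicates, with a chi-square of 89.4 per degree of freedom against 2.65 to 20.5 in the other groups, and the part of this in the Cdh2 result was not tested.

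In YUMM2.1, which keeps its own Bmal1, dHLH-Bmal1 moved 3 of the 4 tested cadherins, 1 upward and 2 downward, where 13.2% of 14323 genes were called. Cdh13 rose from 9.88 and 43.7 CPM in EV to 189 and 214 CPM in dHLH-Bmal1 (log2 fold change 2.93, SE 0.741, 7.63-fold, adjusted p = 0.044). Both dHLH-Bmal1 libraries lay above both EV libraries, but the EV libraries differed widely from each other. Without EV 1 or either dHLH-Bmal1 library the adjusted p rose to 0.1, 0.09 and 0.12, and with the doubted labels exchanged the log2 fold change was 4.22 (adjusted p = 1.2e-06). Cdh19 fell from 88.9 and 53.0 CPM to 9.37 and 5.35 CPM (log2 fold change -3.25, SE 0.389, 9.51-fold lower, adjusted p = 0.0042). Cdh6 fell from 22.3 and 27.3 CPM to 9.18 and 11.8 CPM (-1.24, SE 0.206, adjusted p = 0.012), and this call was lost without dHLH-Bmal1 1 (adjusted p = 0.052). Neither pair of groups overlapped. Cdh2 was at 99.5 and 96.4 CPM in EV and 131 and 116 CPM in dHLH-Bmal1, also without overlap. Its log2 fold change of 0.33 (SE 0.122) was not called (adjusted p = 0.12), and was called in the fit with the replicate block (adjusted p = 0.038) and with the labels exchanged (adjusted p = 0.031).

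The same libraries set against WT-Bmal1 gave 3 called cadherins beside 13.0% of all genes, with log2 fold changes of 2.94 for Cdh13 (adjusted p = 0.044), -3.25 for Cdh19 (adjusted p = 0.0043) and -1.27 for Cdh6 (adjusted p = 0.011). The Cdh2 difference of 0.43 was not called (adjusted p = 0.062), and was with the replicate block (adjusted p = 0.013). The Cdh13 call was lost without WT-Bmal1 1, dHLH-Bmal1 1 or dHLH-Bmal1 2 (adjusted p = 0.22, 0.09 and 0.12), and the Cdh6 call without WT-Bmal1 1 or dHLH-Bmal1 1 (adjusted p = 0.096 and 0.05). The label of WT-Bmal1 1 is in doubt.

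WT-Bmal1 against EV in YUMM2.1 gave 0 called cadherins, and 0% of all genes, at the deposited labels by edgeR, with 98 genes and 0 cadherins at an unadjusted p under 0.05. DESeq2 likewise called 0 cadherins. Cdh13 stood at 11.8 and 41.3 CPM in WT-Bmal1 and 9.88 and 43.7 CPM in EV. In each group 1 library was near 10 CPM and the other above 40 CPM. Exchanging the doubted labels puts both low libraries in EV and both high libraries in WT-Bmal1, at a log2 fold change of 1.96 (adjusted p = 0.0011), and leaving both libraries out gave 2.05 (adjusted p = 0.0072). Cdh19 was at 86.9 and 55.3 CPM in WT-Bmal1 and split in the opposite order, with a log2 fold change of -0.71 under exchanged labels that was not called (adjusted p = 0.17). Cdh6, at 26.1 and 24.5 CPM in WT-Bmal1, overlapped EV and was called under neither labelling.

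**Figure D2:**
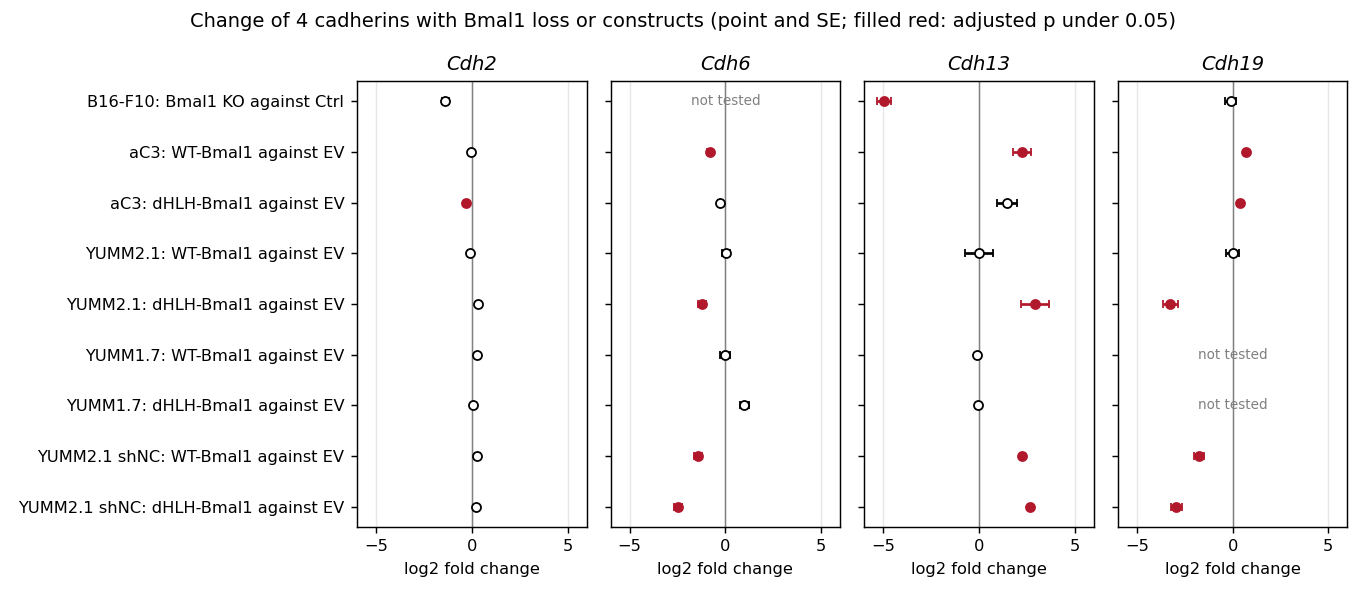
Log2 fold changes (x axis) of Cdh2, Cdh6, Cdh13 and Cdh19 in 9 comparisons (y axis), with bars for 1 standard error and red filled points for calls at adjusted p under 0.05. Cdh13 lies at -4.96 in the B16-F10 knockout and between 2.26 and 2.93 for the called constructs of YUMM2.1, and Cdh19 lies between -1.77 and -3.25 in those YUMM2.1 comparisons.

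In aC3, where there is no Bmal1 of the cell's own, WT-Bmal1 moved 3 of 4 cadherins, 2 upward and 1 downward, where 11.2% of 13790 genes were called. Cdh6 fell from 52.0 and 43.7 CPM in EV to 26.5 and 27.5 CPM (log2 fold change -0.83, SE 0.12, adjusted p = 7e-04). Cdh19 rose from 53.8 and 49.9 CPM to 81.9 and 86.7 CPM (0.70, SE 0.097, adjusted p = 0.00056). Both changes were without overlap. Cdh13 rose from 0.984 and 0.556 CPM to 3.31 and 4.11 CPM, which are 11 and 6 against 35 and 40 counts (2.24, SE 0.489, adjusted p = 0.0094). Its highest aC3 level thus remained below the lowest YUMM2.1 library, and its call was lost without EV 2 or WT-Bmal1 2 (adjusted p = 0.096 and 0.099). Cdh2 was at 111 and 104 CPM against 108 and 111 CPM in EV and was not called (log2 fold change -0.02, adjusted p = 0.91).

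With dHLH-Bmal1 in aC3, 2 of 4 cadherins were called beside 10.9% of all genes. The changes against EV were smaller than with WT-Bmal1 for Cdh6, Cdh13 and Cdh19, and larger for Cdh2. Cdh19 stood at 70.5 and 64.2 CPM (log2 fold change 0.36, SE 0.098, adjusted p = 0.029) and Cdh2 at 91.8 and 88.9 CPM (-0.29, SE 0.0835, adjusted p = 0.041). With DESeq2 neither was called (adjusted p = 0.071 and 0.081), and at most 1 of them was called when any library of the comparison was left out. Cdh6 stood at 38.5 and 41.4 CPM, below both EV libraries and above both WT-Bmal1 libraries, and differed by call from neither (adjusted p = 0.15 against EV and 0.05 against WT-Bmal1). Cdh13 was at 2.26 and 2.04 CPM (1.45, SE 0.512, adjusted p = 0.086). Between dHLH-Bmal1 and WT-Bmal1, 0 cadherins were called by edgeR and 0.877% of all genes, and of the 4 cadherins Cdh2, Cdh6 and Cdh19 had an unadjusted p under 0.05. DESeq2 called 0 of the 3 it tested, whereas edgeR called Cdh6 with no filter on low counts and with a replicate block (adjusted p = 0.0032 and 0.024).

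The response to dHLH-Bmal1 differed between aC3 and YUMM2.1 for 3 of 4 cadherins, tested as an interaction, where 12.2% of 14673 genes were called. The largest was Cdh19, which fell in YUMM2.1 and rose in aC3 (difference in log2 fold change 3.58, SE 0.41, adjusted p = 0.00023). The difference was 0.94 for Cdh6 (SE 0.224, adjusted p = 0.018) and -0.66 for Cdh2 (SE 0.139, adjusted p = 0.01), and without aC3 EV 2 neither was called (adjusted p = 0.088 and 0.063). The Cdh6 call was also lost without aC3 dHLH-Bmal1 2 (adjusted p = 0.06). For Cdh13 it was -1.52 (SE 1.46, adjusted p = 0.58), and -2.79 with the doubted labels exchanged (adjusted p = 0.00028). The response to WT-Bmal1 gave 0 called cadherins, beside 0.075% of all genes, by edgeR, with Cdh6 alone under an unadjusted p of 0.05, and DESeq2 also called 0. With exchanged labels Cdh6 and Cdh19 were called (adjusted p = 0.02 and 0.0022). Both tests use the same EV libraries of each line.

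In YUMM1.7 the constructs moved few genes, and 0 of 3 tested cadherins were called by edgeR for WT-Bmal1, beside 0.138% of all genes, or for dHLH-Bmal1, beside 0.63%. Cdh2 had an unadjusted p under 0.05 for WT-Bmal1 and Cdh6 for dHLH-Bmal1, and DESeq2, which gave an adjusted p to Cdh2 and Cdh13 only, called neither. With no filter on low counts edgeR called Cdh2 for WT-Bmal1 (adjusted p = 0.019) and Cdh6 for dHLH-Bmal1 (adjusted p = 0.0067). Cdh13 stayed between 142 and 167 CPM in all 6 libraries, with log2 fold changes of -0.11 and -0.05 (SE 0.0733 and 0.0735, adjusted p = 0.67 and 0.86). Cdh6 was at 5.26 and 4.40 CPM in EV, 5.17 and 4.29 CPM in WT-Bmal1 and 8.89 and 10.1 CPM in dHLH-Bmal1. Both dHLH-Bmal1 libraries lay above the other 4 (log2 fold change against EV 0.98, SE 0.228, adjusted p = 0.075). Cdh2 was at 146 and 144 CPM in WT-Bmal1, above 123 and 121 CPM in EV (0.26, SE 0.0599, adjusted p = 0.1).

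The YUMM2.1 derivatives were profiled again after transduction with hairpins, which gives a second set of EV, WT-Bmal1 and dHLH-Bmal1 libraries in the presence of shNC. Here both constructs moved 3 of 4 cadherins, 1 upward and 2 downward, beside 22.3% of 14848 genes for WT-Bmal1 and 26.4% for dHLH-Bmal1. The comparisons share their EV libraries. Cdh13 stood at 43.7 and 33.4 CPM in EV, 182 and 187 CPM in WT-Bmal1 and 245 and 242 CPM in dHLH-Bmal1. None of these groups overlapped, and against EV the log2 fold changes were 2.26 (SE 0.119, adjusted p = 4.8e-10) and 2.67 (SE 0.12, adjusted p = 2.7e-11).

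Cdh19 and Cdh6 fell in both. Cdh19 was at 32.4 and 32.0 CPM in EV, 9.66 and 9.15 CPM in WT-Bmal1 and 3.75 and 4.71 CPM in dHLH-Bmal1 (log2 fold changes -1.77, SE 0.268, adjusted p = 0.00012, and -2.95, SE 0.29, adjusted p = 5.7e-07). Cdh6 was at 31.6 and 34.0 CPM in EV, 13.5 and 11.1 CPM in WT-Bmal1 and 5.63 and 6.33 CPM in dHLH-Bmal1 (-1.42, SE 0.198, adjusted p = 5.4e-05, and -2.46, SE 0.212, adjusted p = 1.1e-07). For each gene the 3 groups stood in the order EV, WT-Bmal1, dHLH-Bmal1 without overlap. Cdh2 stood at 86.2 and 92.7 CPM in EV, 115 and 103 CPM in WT-Bmal1 and 111 and 96.4 CPM in dHLH-Bmal1, and was called in neither (adjusted p = 0.078 and 0.17).

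dHLH-Bmal1 against WT-Bmal1 in the presence of shNC gave 1 called cadherin beside 1.91% of all genes. It was Cdh6, at a log2 fold change of -1.04 (SE 0.22, adjusted p = 0.016), and the call was lost without WT-Bmal1 1, dHLH-Bmal1 1 or dHLH-Bmal1 2 (adjusted p = 0.15, 0.27 and 0.084). Cdh19 (-1.18, SE 0.301, adjusted p = 0.054) and Cdh13 (0.41, SE 0.11, adjusted p = 0.074) were called in the fit of the 4 groups the study compared (adjusted p = 0.0059 and 0.033).

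Lowering Myh9 in EV cells moved Cdh13 upward with both hairpins. Cdh13 was at 43.7 and 33.4 CPM with shNC, 92.5 and 89.7 CPM with shMyh9#2 and 76.7 and 78.4 CPM with shMyh9#4. All 4 hairpin libraries lay above both shNC libraries (log2 fold changes 1.25, SE 0.118, adjusted p = 3.6e-06, and 1.01, SE 0.118, adjusted p = 9.1e-05). In the fit of all 40 libraries the call with shMyh9#4 was lost at the same log2 fold change (adjusted p = 0.29). With shMyh9#2, 2 of 4 cadherins were called beside 6.65% of all genes, and with shMyh9#4, 1 of 4 beside 1.71%. The other call with shMyh9#2 was Cdh19, which fell from 32.4 and 32.0 CPM to 14.9 and 17.7 CPM (-0.98, SE 0.257, adjusted p = 0.029). That call was lost when any of the 4 libraries was left out (adjusted p = 0.092 to 0.24). With shMyh9#4 Cdh19 was at 24.3 and 21.6 CPM, below shNC without overlap but not called (-0.49, SE 0.251, adjusted p = 0.53).

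**Figure D3:**
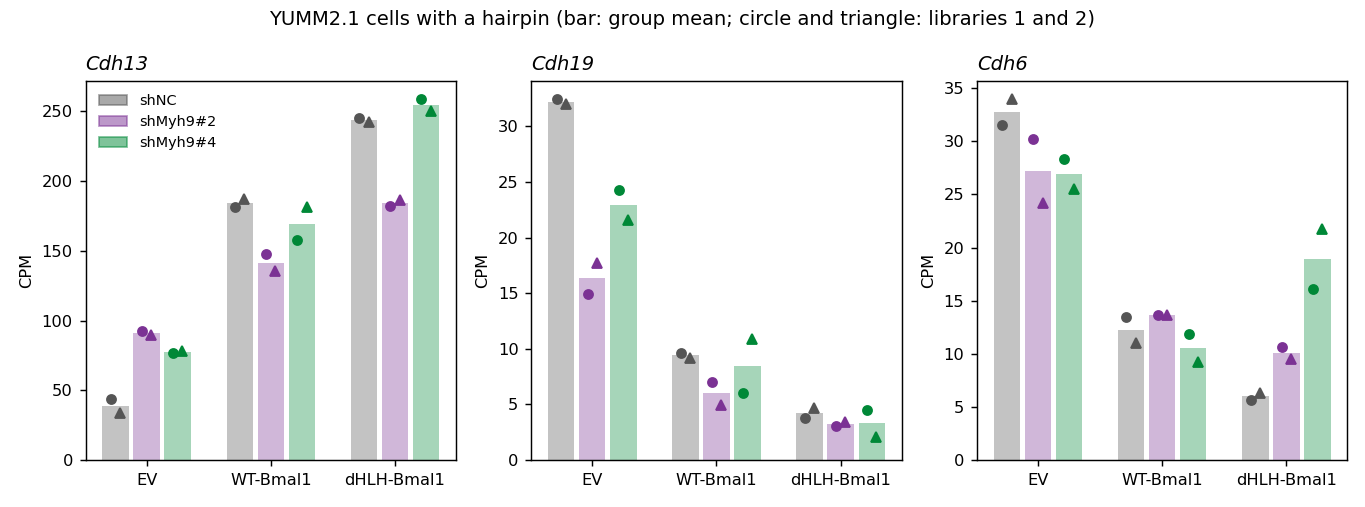
Levels in CPM (y axis, starting at 0) of Cdh13, Cdh19 and Cdh6 in the 9 hairpin groups of YUMM2.1 (x axis), with bars for the mean of 2 libraries and points for each library. Cdh13 rises with both Myh9 hairpins in EV cells, from 33.4 to 43.7 CPM up to 76.7 to 92.5 CPM, and Cdh6 in dHLH-Bmal1 cells rises with shMyh9#4, from 5.63 to 6.33 CPM up to 16.1 to 21.7 CPM.

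In WT-Bmal1 cells 0 cadherins were called by edgeR with shMyh9#2, beside 4.76% of all genes, or with shMyh9#4, beside 0.236%. At an unadjusted p under 0.05 there were 2 cadherins with shMyh9#2 and 0 with shMyh9#4, where DESeq2 also called 0. Cdh13 stood at 182 and 187 CPM with shNC, 147 and 136 CPM with shMyh9#2 and 158 and 181 CPM with shMyh9#4. The shMyh9#2 libraries lay below the shNC libraries (log2 fold change -0.39, SE 0.11, adjusted p = 0.05), and DESeq2 called the difference (adjusted p = 0.014). With shMyh9#4 the Cdh13 difference was -0.12 (SE 0.11, adjusted p = 0.74). Cdh19 with shMyh9#2 was at 7.01 and 4.95 CPM, with an unadjusted p under 0.05 (-0.65, SE 0.279, adjusted p = 0.22). Cdh6 stayed between 9.22 and 13.6 CPM over the 6 libraries.

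In dHLH-Bmal1 cells shMyh9#2 gave 0 called cadherins by edgeR, beside 0.559% of all genes, with Cdh6 and Cdh13 under an unadjusted p of 0.05. Cdh13 was at 245 and 242 CPM with shNC and 182 and 187 CPM with shMyh9#2 (log2 fold change -0.41, SE 0.11, adjusted p = 0.13), and DESeq2 called it (adjusted p = 0.043). With shMyh9#4, 1 of 4 cadherins was called beside 15.1% of all genes. It was Cdh6, which rose from 5.63 and 6.33 CPM to 16.1 and 21.7 CPM (1.71, SE 0.222, 3.28-fold, adjusted p = 0.00039), without overlap. With shMyh9#2 Cdh6 was at 10.7 and 9.52 CPM (0.75, SE 0.224, adjusted p = 0.19), also above both shNC libraries. Cdh13 with shMyh9#4 was at 259 and 250 CPM (0.08, SE 0.11, adjusted p = 0.66). The 2 shMyh9#4 libraries of dHLH-Bmal1 cells include the shallowest of the series, with 57 and 125 counts of Cdh6, and the part of depth in this result was not tested.

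The response of Cdh13 to shMyh9#2 differed between backgrounds. It was lower in WT-Bmal1 than in EV cells (interaction -1.63 on the log2 scale, SE 0.161, adjusted p = 5.7e-06, with 1 of 4 cadherins called beside 5.18% of all genes). In dHLH-Bmal1 against EV cells the interaction was -1.65 (SE 0.161, adjusted p = 1.6e-05, with 1 of 4 called beside 3.29%). In the fit of all 40 libraries neither was called (adjusted p = 0.073 and 0.09). For Cdh19 the interactions were 0.33 and 0.65 and were not called (adjusted p = 0.67 and 0.47).

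Other genes of the cadherin system were read from fixed lists. The 25 partners are catenins, actin linkers, nectins and proteases that act on cadherins. The 11 repressors are transcription factors known to silence Cdh1. A further 33 genes are other cadherins, including desmosomal and atypical ones. In the B16-F10 knockout 0 of 22 partners, 0 of 5 repressors and 0 of 5 other cadherins were called by edgeR, beside 0.44% of all genes. Of these lists 0, 1 and 1 genes had an unadjusted p under 0.05. The medians were 0.09, -0.50 and 0.41 on the log2 scale against -0.01 over all genes.

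Several repressors rose in the YUMM2.1 derivatives. With dHLH-Bmal1 in YUMM2.1, 4 of 9 tested rose, beside 6.51% of all genes, and 0 fell (median log2 fold change 0.89, against -0.01 over all genes). Snai2, which encodes Slug, rose from 10.7 and 14.3 CPM to 59.8 and 90.1 CPM (2.59, SE 0.329, adjusted p = 0.0051), beside Foxc2 (2.15, SE 0.506, adjusted p = 0.036). In the presence of shNC, 5 of 9 rose with WT-Bmal1, beside 11.7% of all genes, and 6 of 9 with dHLH-Bmal1, beside 13.9%. None of the 9 fell in either, and the medians were 0.94 and 0.84 against 0.02 in both over all genes. Snai2 rose in both (1.81, SE 0.139, adjusted p = 5.8e-08, and 2.30, SE 0.138, adjusted p = 1.2e-09). So did Foxc2 (1.63, SE 0.412, adjusted p = 0.0082, and 1.61, SE 0.411, adjusted p = 0.0073). With Myh9 hairpins in EV cells, 3 of 9 rose with shMyh9#2, beside 4.2% of all genes, and 3 of 9 with shMyh9#4, beside 1.45% (medians 0.61 and 0.35 against 0.01 and 0). Cdh1, their known target, stayed at 0 to 6 counts in all of these libraries, so no fall could be measured.

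In aC3 3 of 9 repressors rose and 1 fell with WT-Bmal1 (median 0.31), where 11.2% of all genes were called, and likewise with dHLH-Bmal1 (median -0.07), where 10.9% were. Zeb1 rose and Twist1 fell with WT-Bmal1 (0.79, SE 0.113, adjusted p = 0.00067, and -0.74, SE 0.195, adjusted p = 0.026). In YUMM1.7 0 of 10 were called for either construct by edgeR, beside 0.138% of all genes for WT-Bmal1 and 0.63% for dHLH-Bmal1. At an unadjusted p under 0.05 there were 0 for WT-Bmal1 and 2 for dHLH-Bmal1. Between lines, B16-F10 was lower than YUMM2.1 for 7 of 10 repressors, beside 29.2% of all genes, and higher for 0 (median -3.06 against -0.01 over all genes). Twist1 had 4 counts in the B16-F10 Ctrl libraries together against 323 in YUMM2.1 EV, Klf8 had 2 against 123, and Twist2 had 5 against 69. YUMM1.7 was higher than YUMM2.1 for 6 of 10, beside 17.8% of all genes, and lower for 1. Snai1 was at 15.2 to 16.5 CPM in YUMM1.7 EV and had 1 count in each YUMM2.1 EV library (adjusted p = 1.6e-05).

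Among the partners, 2 of 24 rose and 1 fell with dHLH-Bmal1 in YUMM2.1 (median -0.05), where 13.2% of all genes were called. In the presence of shNC 5 of 24 rose and 5 fell with WT-Bmal1, where 22.3% of all genes were called, and 4 rose and 3 fell with dHLH-Bmal1, where 26.4% were. The shares for dHLH-Bmal1 were thus near those over all genes. Ctnnd1, the p120 catenin that stabilises cadherins at the membrane, fell with both constructs in the presence of shNC. The log2 fold changes were -1.29 with WT-Bmal1 (SE 0.28, adjusted p = 0.0027) and -1.02 with dHLH-Bmal1 (SE 0.274, adjusted p = 0.01). Ctnnd1 also fell with dHLH-Bmal1 in aC3 (-0.73, SE 0.133, adjusted p = 0.0036) and in YUMM1.7 (-0.53, SE 0.101, adjusted p = 0.02). It was the only called partner of 23 in each, beside 10.9% and 0.63% of all genes. It was not among the partners called with dHLH-Bmal1 against EV in YUMM2.1 without a hairpin. In B16-F10 against YUMM2.1, 9 of 24 partners were higher and 9 lower, where 54.3% of all genes were called. Ctnnd2, a catenin related to Ctnnd1, was at 0 in both B16-F10 Ctrl libraries and at 1.25 and 1.29 CPM in YUMM2.1 EV (adjusted p = 0.00088).

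Among the other cadherins 5 to 10 of 33 could be tested. Against YUMM2.1, 5 of 8 were higher and 2 lower in YUMM1.7, where 37.1% of all genes were called, and 2 were higher and 4 lower in B16-F10, where 54.3% were. Cdh26 was at 49.2 and 53.5 CPM in YUMM1.7 EV and at 0.083 and 0.647 CPM in YUMM2.1 EV (log2 fold change 7.23, SE 0.422, adjusted p = 2.4e-06). Fat4, an atypical cadherin, had 22 and 33 counts in YUMM1.7 EV and 0 in YUMM2.1 EV (adjusted p = 0.0049). Celsr2, an atypical cadherin of the flamingo type, was at 0 in YUMM1.7 EV and had 11 and 17 counts in YUMM2.1 EV (adjusted p = 0.0024). With dHLH-Bmal1 in YUMM2.1, 2 of 9 rose and 1 fell, where 13.2% of all genes were called. Fat4 went from 0 to 12 and 21 counts (adjusted p = 0.035), and Celsr2 from 28 counts in the EV libraries together to 1 in the dHLH-Bmal1 libraries (adjusted p = 0.038). In the presence of shNC Cdh26 rose with WT-Bmal1 and with dHLH-Bmal1 (2.70 and 2.78, adjusted p = 0.0014 and 0.00077). With dHLH-Bmal1 and shNC, Cdh10 fell from 20 and 30 counts to 1 and 6 counts (adjusted p = 0.015), and Dchs1 rose (2.18, SE 0.593, adjusted p = 0.011).

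**Figure D4:**
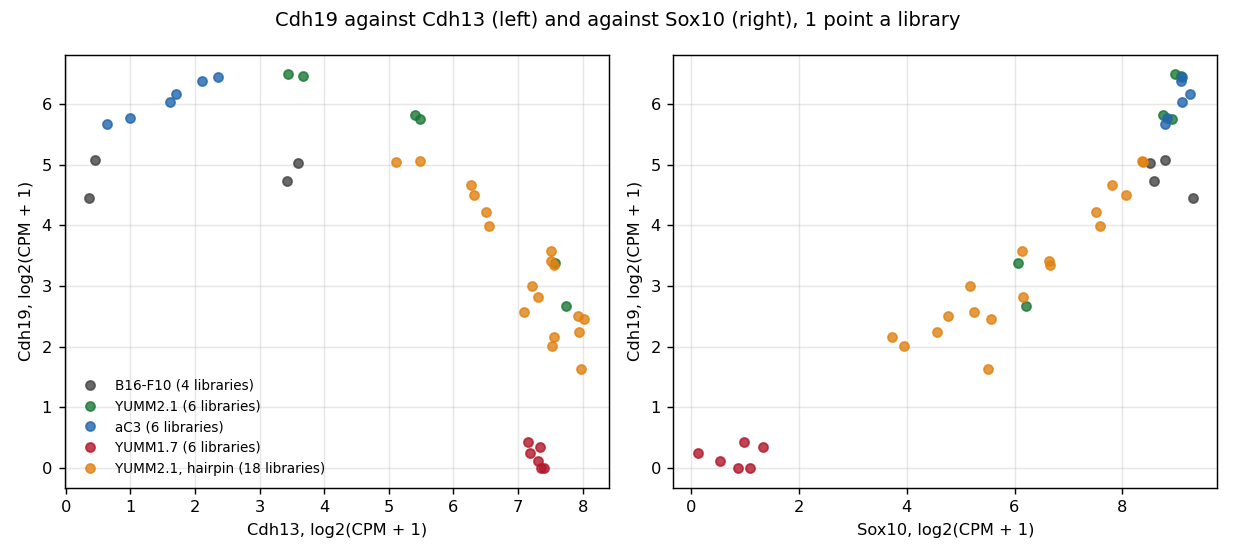
Cdh19 against Cdh13 and Cdh19 against Sox10 in the 40 libraries, on log2 scales of CPM plus 1, coloured by line. Libraries high in Sox10 are mostly high in Cdh19, and the 6 YUMM1.7 libraries sit at the floor of both. The 4 B16-F10 libraries hold 20.9 to 32.7 CPM of Cdh19 at 367 to 633 CPM of Sox10, less Cdh19 than YUMM2.1 EV. Cdh13 and Cdh19 run in opposite directions in YUMM2.1 but not in every line.

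The pattern of each member over the 20 group means was compared with that of every protein-coding gene. These correlations are descriptions, since groups share lines, constructs and library sets. The genes most like Cdh19 were Acot1 (r = 0.985), Sox10 (r = 0.981), the neural crest and melanocyte transcription factor, and Gpd1 (r = 0.980). In YUMM2.1, Sox10 was at 501 and 484 CPM with EV and at 66.3 and 72.9 CPM with dHLH-Bmal1, and it was at 441 to 610 CPM in aC3 and 0.0908 to 1.52 CPM in YUMM1.7. Cdh6 was most like Rorb (r = 0.986), Pcdh1, a protocadherin (r = 0.983), and Specc1 (r = 0.981). Cdh13 was most like Tgfb1i1 (r = 0.975), which encodes the focal adhesion protein Hic-5, and Bok and Arl4c (r = 0.962 and 0.959). For Cdh2 the highest value was 0.829, with Lonp2, followed by Phyhd1 and Mat2b (0.824 and 0.770). Those most like the scarce Cdh1 were Rhd, Gm11127 and Dnah7b (0.908, 0.902 and 0.899). Between members, Cdh13 and Cdh19 had r = -0.66 and Cdh1 and Cdh6 r = -0.73 over the 20 groups. B16-F10 held 97 of the 138 Cdh1 counts and 1 of the 6749 Cdh6 counts, and the latter correlation was not computed without this line.

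Markers of another cell type moved with part of this pattern. Of the fibroblast list, in YUMM2.1 Col1a1 was at 6.06 and 16.5 CPM with EV and at 250 and 232 CPM with dHLH-Bmal1, the groups in which Cdh13 was 9.88 and 43.7 against 189 and 214 CPM. The 5 genes of the list summed to between 7.31 and 257 CPM over the YUMM2.1 libraries without a hairpin and to 7.29 to 259 CPM over the hairpin libraries, while Thy1 was at 0 in the former and at most 0.649 CPM in the latter. In YUMM1.7, where Cdh13 was at 142 to 167 CPM, Col1a1 was at 2.58 to 5.21 CPM and Pdgfra at 94.4 to 112 CPM. The Schwann cell list, which holds genes that Sox10-positive melanoma cells also express, summed to 11.7 to 15.1 CPM in YUMM1.7 and to 112 to 520 CPM in all other lines. In the hairpin libraries with shNC the fibroblast list summed to 7.29 to 7.65 CPM in EV, 52.5 to 52.9 CPM in WT-Bmal1 and 184 to 201 CPM in dHLH-Bmal1, the order in which Cdh13 rose and Cdh19 and Cdh6 fell. Most of the sum with the constructs was Col1a1, at 48.8 and 49 CPM in WT-Bmal1 and 199 and 181 CPM in dHLH-Bmal1 with shNC. In EV cells the list was at 22.4 to 29.2 CPM with shMyh9#2 and 9.41 to 11.7 CPM with shMyh9#4. With shMyh9#2 it was at 114 to 122 CPM in WT-Bmal1 cells and 246 to 259 CPM in dHLH-Bmal1 cells. Both lay above shNC, whereas Cdh13 was below shNC in both.

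The endothelial list (Pecam1, Cdh5, Kdr and Tek) moved with Cdh13 between some hairpin groups and against it between others. With shNC it summed to 7.96 to 10.1 CPM in EV, 20.9 to 21.5 CPM in WT-Bmal1 and 14.7 to 16.5 CPM in dHLH-Bmal1. In EV cells it was at 16.7 to 18.5 CPM with shMyh9#2 and 13.2 to 18.1 CPM with shMyh9#4. With shNC the list was thus lower in dHLH-Bmal1 than in WT-Bmal1, while Cdh13 was higher. In WT-Bmal1 cells it was at 22.7 to 26.4 CPM with shMyh9#2, above shNC, while Cdh13 was below shNC. The keratinocyte and epithelial list summed to 0.37 to 0.785 CPM in EV with shNC, 2.31 to 2.73 CPM in WT-Bmal1 and 2.92 to 3.06 CPM in dHLH-Bmal1, while Epcam and Krt5 were at 0 in all hairpin libraries. The part of other cell types in these results was not tested.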

How the data were processed

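The authors extracted RNA with TRIzol, treated it with DNase, made QuantSeq FWD 3′ libraries and sequenced single reads on a NextSeq 500. Per the methods, reads were aligned with bowtie2 to mm10 and counted with RSEM against Ensembl transcripts. The deposited table holds RSEM estimated counts as whole numbers for 51789 genes in 40 libraries, and these were tested as counts. The strand setting and the Ensembl release are not given in the sources used here. Tag position depends on the annotated 3′ end, so a gene read through another end is undercounted. No column of per-sample values was left unused.

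Identifiers were paired with symbols from GENCODE M21 (GRCm38), which matched 99.63% of them. Genes were filtered with filterByExpr (minimum count 10, minimum total 15), scaled by TMM and tested with edgeR 4.0.16 (glmQLFit and glmQLFTest) in R 4.3.3, in 1 fit per line or library set. Benjamini-Hochberg adjustment ran over all tested genes and the threshold was 0.05. Differences of fold changes were tested as interaction terms. Ratios of summed counts have exact 95% intervals, which cover counting error only and not the spread between libraries or groups. The script was tested on simulated data. Alternatives were DESeq2 1.42.0, its size factors, other filters, a replicate block, 1 fit of all libraries, the fit of 4 hairpin groups, each library left out, and the doubted labels exchanged or both libraries left out.

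Replicate numbers are shared by groups. Same-numbered YUMM2.1 libraries deviated together (correlations 0.378, 0.393 and 0.181 over the 3 pairs of groups), so the blocked value is given beside the results it changes there. This goes with the doubted labels, since the correlations were -0.0414, 0.192 and -0.151 after the exchange. The members and lists were chosen with earlier results of these data known. The 8 members are always named. Of the lists, called genes with the largest changes are named, at most 4 a comparison. Foxc2 and Ctnnd1 with dHLH-Bmal1 and shNC are named beyond these, since both are named for WT-Bmal1. The genes most like a member are the 3 with the highest Pearson correlation of group means of edgeR's log2 CPM, which includes a prior count. Among the markers, Col1a1, Pdgfra and Sox10 were picked after their values were seen.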

Additional observations from a re-analysis of the deposited data

Results flagged for a closer look

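These results differed between backgrounds or lines by a test of the difference itself, by edgeR's quasi-likelihood test. The effect of shMyh9#2 on Cdh13 was lower in WT-Bmal1 than in EV cells (-1.63 on the log2 scale, SE 0.161, adjusted p = 5.7e-06), and lower in dHLH-Bmal1 than in EV cells (-1.65, SE 0.161, adjusted p = 1.6e-05). With shMyh9#2 both libraries lay above both shNC libraries in EV cells, and below both in WT-Bmal1 and in dHLH-Bmal1 cells. The effect of dHLH-Bmal1 in aC3 set against that in YUMM2.1 differed by 3.58 for Cdh19 (SE 0.41, adjusted p = 0.00023), by 0.94 for Cdh6 (SE 0.224, adjusted p = 0.018) and by -0.66 for Cdh2 (SE 0.139, adjusted p = 0.01). The aC3 cells are 1 clone, so the clone and the absence of Bmal1 cannot be told apart. No group had enough libraries for a test of single outlying samples.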

How the results depend on the processing

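Cdh1, Cdh3, Cdh4 and Cdh11 are limited by depth, and with 2 libraries a group the calls of Cdh13 and Cdh6 often rest on 1 library. The cause of the changes below was not tested. The number of cadherins called in the B16-F10 knockout was 1, and 2 with DESeq2, with no filter, in 1 fit of all 40 libraries and with a replicate block, and 1 to 3 with a library left out (3 without KO 1, 2 without KO 2). In the fit of all 40 libraries it went from 3 to 1 for WT-Bmal1 in aC3, from 2 to 0 for dHLH-Bmal1 in aC3, from 2 to 1 for shMyh9#2 and from 1 to 0 for shMyh9#4 in EV cells, and from 1 to 0 for both shMyh9#2 interactions. With DESeq2 it was 0 for dHLH-Bmal1 in aC3, 1 for shMyh9#2 in WT-Bmal1 and in dHLH-Bmal1 cells, and 3 for dHLH-Bmal1 against WT-Bmal1 with shNC, which had 2 with no filter and 3 in the fit of 4 groups. A mean of at least 10 counts gave 1 for shMyh9#2 in WT-Bmal1 cells. With no filter it was 1 for dHLH-Bmal1 against WT-Bmal1 in aC3, for each construct in YUMM1.7 and for the WT-Bmal1 interaction.

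Exchanging the doubted labels, or leaving both libraries out, gave 1 call for WT-Bmal1 in YUMM2.1, where Cdh13 turned from -0.01 to 1.96 and 2.05 on the log2 scale. The exchange gave 2 calls for the WT-Bmal1 interaction. Cdh13 in B16-F10 against YUMM2.1 turned from -1.37 to 0.038 with both left out, and with 1 library left out it ranged from -2.10 (without YUMM2.1 EV 1) to 0.038 (without YUMM2.1 EV 2). With a library left out the number called ranged over 0 to 1 for dHLH-Bmal1 in aC3 and for dHLH-Bmal1 against WT-Bmal1 with shNC. It ranged over 1 to 3 for dHLH-Bmal1 in YUMM2.1 against EV (1 without dHLH-Bmal1 1) and against WT-Bmal1 (1 without WT-Bmal1 1 or dHLH-Bmal1 1), and for the dHLH-Bmal1 interaction (1 without aC3 EV 2). It was 1 to 1 for shMyh9#2 in EV cells and 0 to 3 for aC3 against YUMM2.1 (0 without either aC3 EV library).

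The replicate block gave 1 for dHLH-Bmal1 against WT-Bmal1 in aC3 and 1 for aC3 against YUMM2.1, and moved no other count of called cadherins by over 1.5 times except in B16-F10, given above. Outside YUMM2.1 without hairpins the numbers may share only a number, as the mean correlations were 0.0904 in B16-F10, 0.0536 in aC3, -0.00246 in YUMM1.7 and -0.00377 with hairpins. Among all genes the calls in B16-F10 went from 64 to 392 with DESeq2, 444 with no filter, 249 with the block and 1952 in 1 fit, and those of WT-Bmal1 in YUMM2.1 from 0 to 101 with labels exchanged. Of the counts of called cadherins with a library left out, 97 stayed within 1.5 times and 19 did not, and under other settings 144 did and 26 did not. Values of single cadherins kept a call in its direction, or stayed uncalled whatever their direction, in 415 leave-outs and 613 other fits. A call was lost in 36 and 16, gained in 4 and 31, and met by the opposite direction in 1 and 3.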
